A study of Mus musculus with 6 samples.

Results

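The genes described are the oxygen-binding globins and Alas2: myoglobin (Mb), the α-globins (Hba-a1, Hba-a2), the adult β-globins (Hbb-bs, Hbb-bt and the older symbols Hbb-b1 and Hbb-b2) and the erythroid enzyme of haem synthesis. They were taken as every probe to which the platform annotation gives one of these 8 symbols, and were selected on role and partly on measured values, the spread of their signals between these same arrays. The array carried 15 such probes for 6 genes, out of 45281 probes for 19057 gene symbols: 2 for Mb, 1 for Hba-a1, 6 for Hbb-bs, 4 for Hbb-bt, 1 for Hbb-b2 and 1 for Alas2, with none annotated to Hba-a2 or Hbb-b1.

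The samples were tibialis anterior muscle, a fast hindlimb muscle, of 3 mice whose nebulin lacked its SH3 domain (Neb SH3-deleted, Neb∆SH3 in the labels) and 3 wild type mice, each on its own Illumina bead array. All 6 were males aged 8 weeks on a mixed Sv129/Black Swiss background, and the labels call the animals of a genotype biological replicates. Nebulin is a giant protein of the sarcomere's thin filament, with its SH3 domain in the Z-disc, and the comparison asks whether transcripts of the muscle change when that domain is missing.

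Myoglobin is made inside oxidative muscle fibres and stores oxygen there, whereas haemoglobin, a tetramer of α and β chains, carries oxygen in red cells, so its transcripts in whole muscle come chiefly from reticulocytes in the blood left in the tissue. Alas2 makes the first haem precursor in red cell precursors, while other cells use Alas1. Inbred mice carry one of several β-globin haplotypes, and the "single" haplotype with Hbb-bs and Hbb-bt differs in sequence from the "diffuse" one with Hbb-b1 and Hbb-b2, so a probe need not read both alike. The labels do not give the haplotypes of these animals. The mouse α-globin genes, and the β-globin genes of the single haplotype, are near-identical copies in their coding parts, so a probe named for one may read its neighbour too.

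The promoters are shown because the erythroid genes and the muscle gene are compared throughout. Each line is the 250 bases before the transcription start in RefSeq's GRCm38.p6 annotation, 5′ to 3′ on the gene's strand. Capitals mark 4 short motifs, searched on either strand. The TATA box was searched as TATAA. The second motif was CCAAT, which the factor NF-Y binds. The third, bound by Klf factors, was spelled CACCC. The GATA motif, bound by the erythroid factor Gata1, was searched as GATAA.
Hbb-bs, chr7:103827929-103828178, minus strand: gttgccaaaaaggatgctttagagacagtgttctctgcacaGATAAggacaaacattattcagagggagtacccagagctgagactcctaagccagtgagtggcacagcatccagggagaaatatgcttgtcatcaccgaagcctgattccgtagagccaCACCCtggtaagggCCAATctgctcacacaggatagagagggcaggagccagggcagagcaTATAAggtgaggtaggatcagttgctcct
Hbb-bt, chr7:103813924-103814173, minus strand: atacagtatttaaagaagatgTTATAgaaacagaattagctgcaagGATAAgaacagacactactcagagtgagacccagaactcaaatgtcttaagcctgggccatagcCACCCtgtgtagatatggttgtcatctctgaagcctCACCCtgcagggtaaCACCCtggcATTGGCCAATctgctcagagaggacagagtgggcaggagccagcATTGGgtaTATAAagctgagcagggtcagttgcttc
Hba-a1, chr11:32283422-32283671, plus strand: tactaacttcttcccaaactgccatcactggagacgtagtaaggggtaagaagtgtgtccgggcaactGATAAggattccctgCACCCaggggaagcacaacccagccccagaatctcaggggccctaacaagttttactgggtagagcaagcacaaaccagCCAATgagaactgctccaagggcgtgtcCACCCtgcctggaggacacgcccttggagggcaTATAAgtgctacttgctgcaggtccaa
Mb, chr15:77022788-77023037, minus strand: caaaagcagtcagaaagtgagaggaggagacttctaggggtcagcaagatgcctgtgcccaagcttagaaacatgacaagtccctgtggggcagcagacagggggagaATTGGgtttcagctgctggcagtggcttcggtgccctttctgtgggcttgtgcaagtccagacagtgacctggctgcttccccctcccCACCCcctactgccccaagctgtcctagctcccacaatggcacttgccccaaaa

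The windows of Hbb-bs, Hbb-bt and Hba-a1 each held all 4 motifs, as did 0.968% of 32851 windows of the same length in the annotation. Singly, the TATA box was in 22.8% of windows, the NF-Y motif in 33.8%, the Klf motif in 52% and the GATA motif in 22.6%. In the 3 erythroid genes a TATA match lay close to the start site, beginning 29 bases before it in Hbb-bs, 28 in Hbb-bt and 27 in Hba-a1, and no matches overlapped. The Mb window shown held 2 of the motifs, those of NF-Y and Klf factors, and the other 2 annotated Mb windows, one of which overlaps it, held 1 and 2. The Alas2 window held all but the NF-Y motif, in matches that partly overlap. The windows of Hba-a1 and Hba-a2 shared an unbroken run of 247 bases, whereas the longest run shared by Hbb-bs and Hbb-bt was 14 bases. These are matches of letters, not measured binding sites.

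The arrays were dim. Between 4000 and 4667 probes were above background (detection p under 0.05) on the Neb SH3-deleted arrays, against 4506 to 5844 on the wild type arrays, and the highest signal was 10698. Skeletal muscle markers were present, 14 of 15 passing the filter, with Pvalb, the parvalbumin gene of fast fibres, at 8200, 10698 and 8344 in Neb SH3-deleted and at 9076, 5388 and 7861 in wild type muscle. The single Neb probe was above background on 0 of 6 arrays, so it does not check the genotype. On the first principal component of the tested probes (32.6% of the variance) Neb SH3-deleted replicate 1 (12.4) and wild type replicate 2 (10.7) stood apart, with the remaining 4 at -6.64 to -5.09, and results are therefore also given without that pair.

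Of the 15 probes, 10 were above background on at least 3 arrays and were tested, 7 of them above it on all 6 arrays, as were 44.1% of all probes tested. The filter used all arrays alike, whatever the genotype. The tested probe nearest to it was Hbb-bs ILMN_1255462, above background on 4 arrays, and the nearest left out was Alas2, on 1. No probe of the 10 passed an adjusted p of 0.05 (limma with Benjamini-Hochberg adjustment over 3422 probes, adjusted p 0.984 to 0.991), nor did any of the 3422 (0%). At an unadjusted p under 0.05 there were 147 probes in all (4.3%), and 2 of the 10. The direction was higher in Neb SH3-deleted muscle for 9 of the 10, and for 43.9% of all probes tested. Since the members were chosen with their spread between arrays known, these counts describe them and support no further statement.

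**Figure D1:**
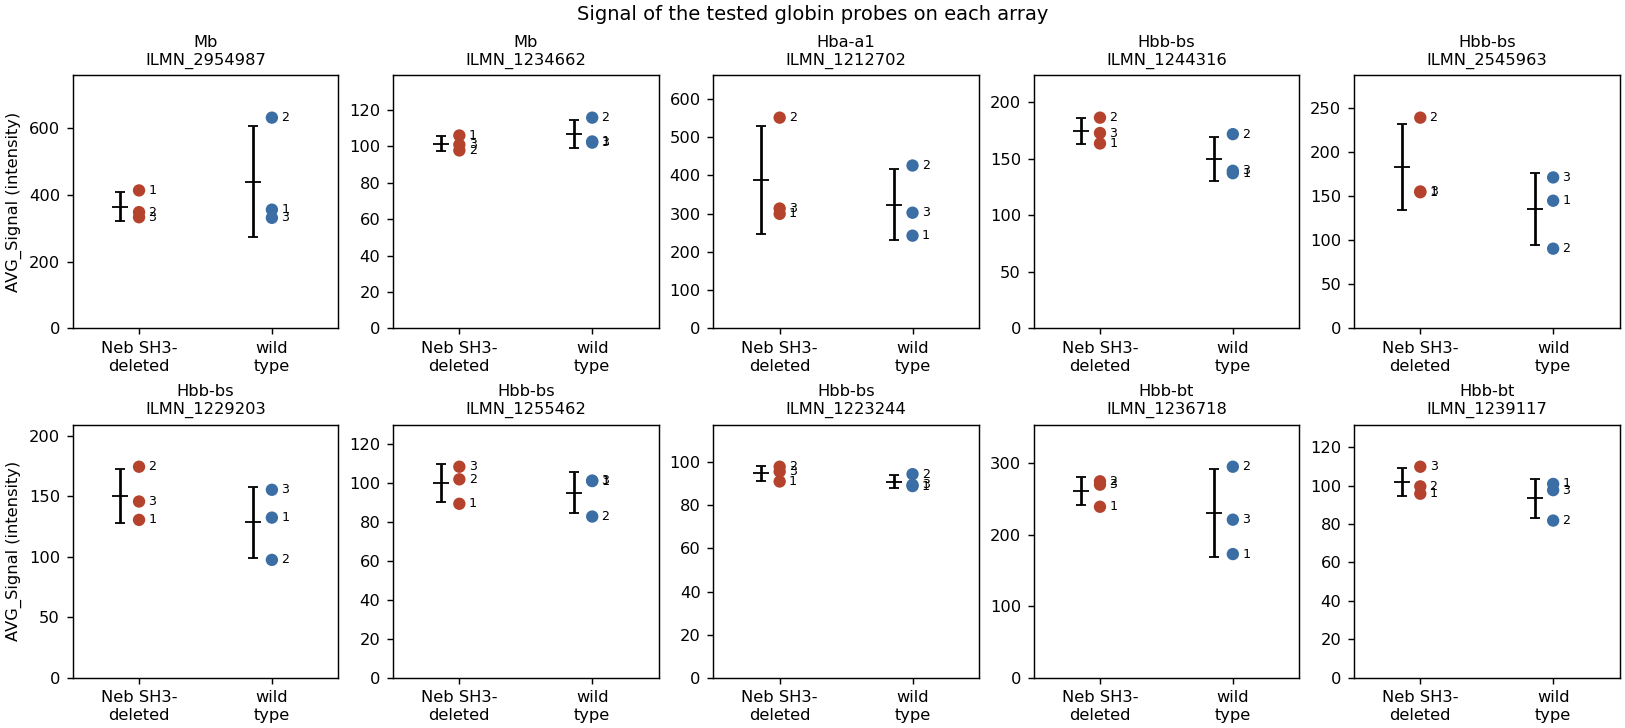
Signal intensity (AVG_Signal, not normalized) of the 10 tested probes of Mb, Hba-a1, Hbb-bs and Hbb-bt on each array, with Neb SH3-deleted left of wild type in each panel. Points carry the replicate number, and the bars beside them are the mean and SD of 3 arrays. Wild type replicate 2 is the highest point for Mb and the lowest for Hbb-bs ILMN_2545963.

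Myoglobin did not differ detectably between the genotypes. Its brighter probe, ILMN_2954987, had signals of 414, 349 and 334 in Neb SH3-deleted replicates 1, 2 and 3, against 356, 632 and 332 in wild type replicates 1, 2 and 3. The groups overlapped, and the wild type spread was that of a single animal, replicate 2. After normalization the level was 8.32 ± 0.42 in Neb SH3-deleted and 8.29 ± 0.57 in wild type muscle (log2 intensity, SD, n = 3 each). The log2 difference was 0.03, with a 95% interval of -0.61 to 0.67, so a 1.5-fold change either way lay inside it. The mean of the raw signals was lower in Neb SH3-deleted muscle, at 365 ± 42.7 against 440 ± 167 in wild type (SD, n = 3 each), and the direction was not settled: the normalized difference was -0.26 with median scaling, -0.20 when wild type replicate 1 was left out and 0.35 when wild type replicate 2 was.

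The second Mb probe, ILMN_1234662, was close to background and did not differ detectably either. Its signals were 106, 97.7 and 101 in Neb SH3-deleted muscle and 103, 116 and 102 in wild type muscle. Wild type replicate 2 was again the highest and Neb SH3-deleted replicate 1 the next, and the log2 difference was -0.15 (95% interval -0.64 to 0.34). These are the arrays that stood apart on the first component, and whether that plays a part in the order of the Mb levels was not tested. Without both arrays the differences were 0.14 for ILMN_2954987 and -0.15 for ILMN_1234662.

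α-globin was at a higher mean level in Neb SH3-deleted muscle, by a margin within the spread between animals. The Hba-a1 probe, ILMN_1212702, had signals of 299, 550 and 313 in Neb SH3-deleted replicates 1, 2 and 3, against 242, 425 and 302 in wild type replicates 1, 2 and 3. Replicate 2 was the highest in each genotype and wild type replicate 1 the lowest of all, and the groups overlapped. The normalized level was 8.35 ± 0.26 in Neb SH3-deleted and 7.79 ± 0.64 in wild type muscle (log2 intensity, SD, n = 3 each), a log2 difference of 0.56 (95% interval -0.07 to 1.19, adjusted p 0.984 by limma). That difference was 0.21 with wild type replicate 1 left out, 0.85 with wild type replicate 2 left out, 0.29 with median scaling, and 0.93 without both arrays apart on the first component.

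**Figure D2:**
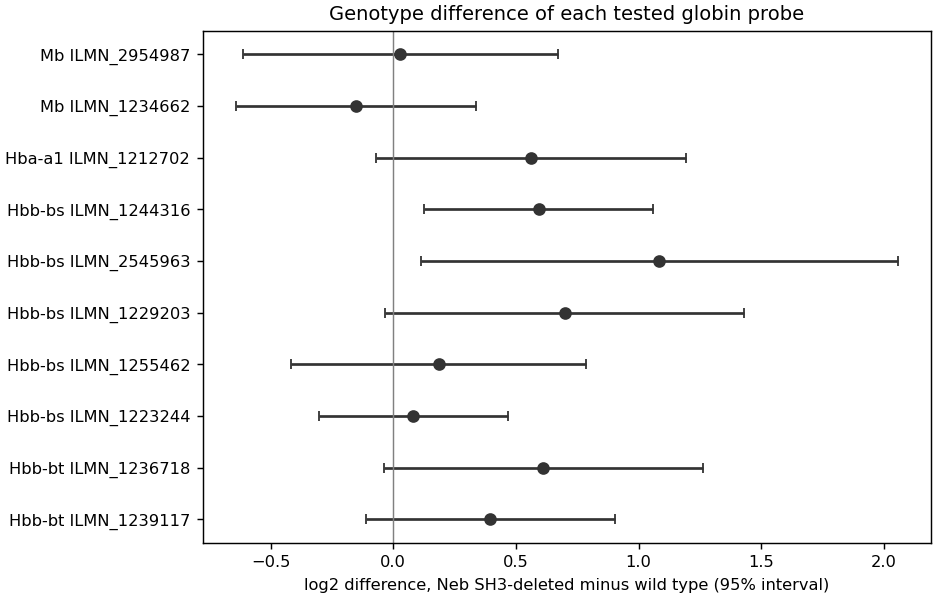
Log2 difference, Neb SH3-deleted minus wild type, of each tested probe, with its 95% interval from limma (n = 3 each). The Mb intervals lie on both sides of 0, and the β-globin estimates run from 0.08 to 1.09, 2 of them with an interval above 0 before adjustment for 3422 probes.

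The β-globin genes had 7 tested probes, all with a higher mean in Neb SH3-deleted muscle, by 0.08 to 1.09 on the log2 scale. They share sequence and the same 6 arrays and are not independent readings. The brightest was Hbb-bt ILMN_1236718, with signals of 239, 275 and 270 in Neb SH3-deleted replicates 1, 2 and 3, against 173, 295 and 221 in wild type replicates 1, 2 and 3. Its difference was 0.61 (95% interval -0.04 to 1.26), and it was 0.24 without wild type replicate 1, 0.31 with median scaling and 0.84 without both arrays apart on the first component. Wild type replicate 1 was low for this probe, as it was for Hba-a1, and wild type replicate 2 lay among the Neb SH3-deleted values after normalization.

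The Hbb-bs probe ILMN_1244316 had a similar order of arrays. It had signals of 163, 186 and 173 in Neb SH3-deleted muscle, against 137, 172 and 139 in wild type muscle. After normalization its groups did not overlap, at 6.80 ± 0.14 in Neb SH3-deleted and 6.21 ± 0.42 in wild type muscle (log2 intensity, SD, n = 3 each), whereas the raw signals did overlap. The gap was narrow, with the lowest Neb SH3-deleted array at 6.64 and the highest wild type array at 6.62. This probe was the 1 tested member of 10 whose groups did not overlap, where 9.06% of all probes tested did not (3.24% higher and 5.82% lower). The log2 difference was 0.59 (95% interval 0.12 to 1.06, adjusted p 0.984 by limma), and it was 0.38 without wild type replicate 1 or with median scaling. A dimmer Hbb-bs probe, ILMN_1223244, had signals of 91.2, 98.0 and 95.8 in Neb SH3-deleted muscle and 89.0, 94.6 and 89.6 in wild type muscle, with a difference of 0.08 that turned to -0.02 without wild type replicate 1.

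The other 4 tested β-globin probes ordered the wild type animals differently, with replicate 2 the lowest of all 6 arrays in each. Hbb-bs ILMN_2545963 had signals of 154, 239 and 155 in Neb SH3-deleted replicates 1, 2 and 3, against 145, 90.4 and 171 in wild type replicates 1, 2 and 3. Hbb-bs ILMN_1229203 had 130, 174 and 146 in Neb SH3-deleted muscle, against 132, 97.2 and 155 in wild type muscle. In the raw signals of both probes wild type replicates 1 and 3 lay within or near the Neb SH3-deleted range and replicate 2 far below it. After normalization wild type replicate 1 was below that range too. For ILMN_2545963 it was at 5.94 and replicate 2 at 4.49, against 6.63 to 7.11 in Neb SH3-deleted muscle. For ILMN_1229203 it was at 5.70 and replicate 2 at 4.83, against 6.19 to 6.49.

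The dim pair showed the same low array. Hbb-bs ILMN_1255462 had signals of 89.4, 102 and 108 in Neb SH3-deleted muscle, against 101, 82.8 and 101 in wild type muscle, with wild type replicate 2 at a detection p of 0.562. Hbb-bt ILMN_1239117 had 95.8, 99.6 and 110 in Neb SH3-deleted muscle, against 101, 81.8 and 97.7 in wild type muscle, with wild type replicate 2 at a detection p of 0.672. This last probe was above background on every array but wild type replicate 2, as were 1.46% of all probes tested. Over all probes tested, wild type replicate 2 was the lowest array for 15.1%.

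The genotype differences of these 4 probes were smaller without that animal, as they had to be, since its low value was what grouped them. Only the size of the step is described. ILMN_2545963 had the largest difference of the 10 probes, 1.09 (95% interval 0.12 to 2.06), at levels of 6.81 ± 0.26 in Neb SH3-deleted and 5.72 ± 1.14 in wild type muscle (log2 intensity, SD, n = 3 each). It was 0.47 without wild type replicate 2. ILMN_1229203 was at 0.70 (-0.03 to 1.43), and at 0.28 without wild type replicate 2. ILMN_1239117 was at 0.39 (-0.11 to 0.90) and ILMN_1255462 at 0.18 (-0.42 to 0.78), against 0.18 and -0.05 without that replicate. For Hba-a1 and Hbb-bt ILMN_1236718, where that animal was the highest wild type array, the same step necessarily moved the difference up, to 0.85 and 0.89. Without both arrays apart on the first component the 7 β-globin differences were 0.20 to 0.84.

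**Figure D3:**
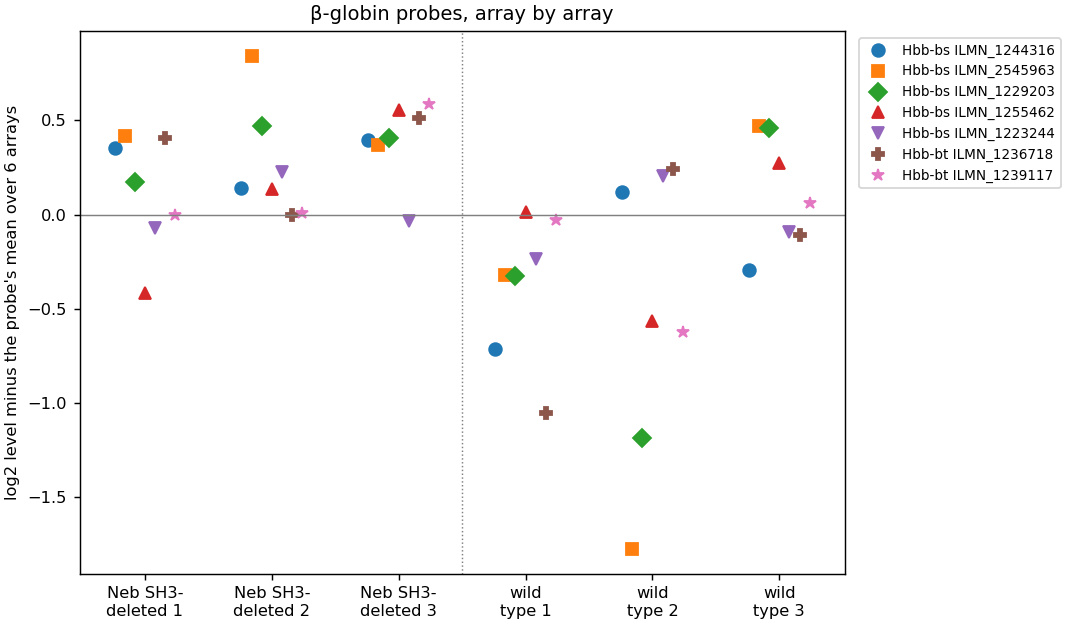
Normalized log2 level of the 7 tested β-globin probes on each array, each minus its own mean over the 6 arrays, with Neb SH3-deleted arrays left of wild type arrays. In wild type replicate 2, 4 probes lie far below 0 and 3 above it. In wild type replicate 1, Hbb-bt ILMN_1236718 is the lowest.

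Wild type replicate 2 was thus high for Hba-a1 and for some β-globin probes and at or near background for others, and a single gene symbol covered both orders: the 5 tested Hbb-bs probes divided 2 to 3, and the 2 tested Hbb-bt probes 1 to 1. The probe sequences and the haplotypes of the animals were not used here, and their part in the disagreement was not tested.

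Alas2 and the remaining β-globin probes were not measured at a level that allows a comparison. Alas2 ILMN_2675874 had signals of 91.4, 83.6 and 86.4 in Neb SH3-deleted muscle and 86.3, 77.1 and 79.7 in wild type muscle, and only Neb SH3-deleted replicate 1 was above background, at a detection p of 0.0406. Hbb-b2 ILMN_2729513, the probe of a gene of the diffuse haplotype, was above background on 0 of 6 arrays (detection p 0.452 to 0.985). The same held for Hbb-bs ILMN_2544056 and for Hbb-bt ILMN_1216452 and ILMN_1235372. No fold is given for these 5 probes.

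The spread over the 6 arrays, which was one ground for choosing these genes, is given as a description. The SD of the normalized level was 0.95 for Hbb-bs ILMN_2545963, 0.57 for Hbb-bt ILMN_1236718, 0.54 for Hba-a1 and 0.45 for Mb ILMN_2954987, beside a median of 0.22 over all probes tested. It exceeded the SD of 90% of probes for 8 of the 10 probes. The exceptions were the dim Mb probe (0.31) and Hbb-bs ILMN_1223244 (0.18).

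Myoglobin and haemoglobin levels were not shown to vary together over the animals. Between the brightest Mb probe and the brightest probe of each measured haemoglobin gene, Pearson's r over 6 arrays was 0.41 for Hba-a1, 0.60 for Hbb-bs ILMN_1244316 and 0.68 for Hbb-bt ILMN_1236718. The exact permutation p-values were 0.436, 0.2 and 0.122 (two-sided), and 0.436, 0.3 and 0.3 after Benjamini-Hochberg adjustment over the 3 relations. Spearman's rho was 0.37, 0.49 and 0.71, with exact permutation p-values of 0.497, 0.356 and 0.136 (adjusted 0.497, 0.497 and 0.408). Without the 2 arrays farthest from the median Mb level, which were again Neb SH3-deleted replicate 1 and wild type replicate 2, r was 0.33, 0.67 and 0.81 over 4 arrays. Groups of 3 are too small for a value within each genotype.

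**Figure D4:**
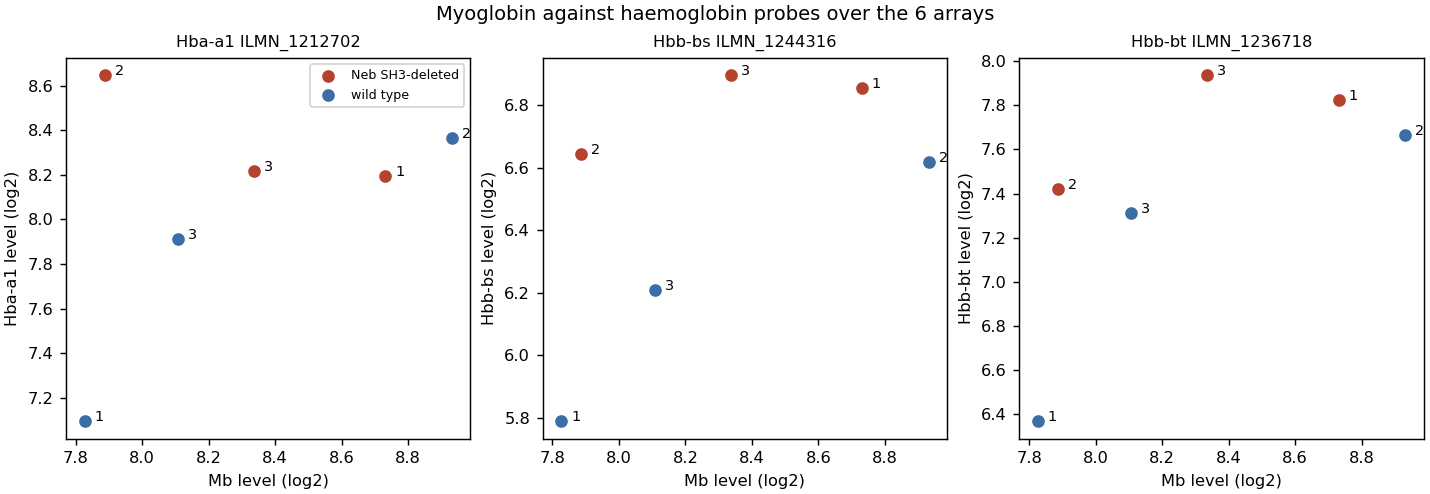
Normalized log2 level of Mb ILMN_2954987 on the horizontal axis against the brightest Hba-a1, Hbb-bs and Hbb-bt probes on the vertical axes. Each point is 1 array, labelled with its replicate number. Wild type replicate 1 is lowest on both axes in each panel, and Neb SH3-deleted replicate 2 combines a low Mb level with the highest Hba-a1 level.

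Other red cell genes gave little to set beside haemoglobin. Of 6 defining genes of red cells and embryonic globins on the array (among Slc4a1, Epb42, Ahsp, Klf1, Hbb-bh1, Hbb-y and Hba-x), 0 of 8 probes were above background on any array. Of a list of 34 red cell and erythroid genes 5 were tested, of which 1 had a higher and 4 a lower mean in the Neb SH3-deleted animals, and 0 passed (limma, median log2 difference -0.14, beside -0.03 over the 2553 genes tested). Sptb, β-spectrin of the red cell and muscle membrane, was at 0.29 (95% interval -0.31 to 0.90), Prdx2, a peroxiredoxin abundant in red cells, at -0.52 (-1.21 to 0.17), and Tmod1, which caps actin filaments in red cells and muscle, at -0.07 (-0.64 to 0.50). Sptbn1, a spectrin not particular to red cells, was at -0.34. Ank1 was at -0.14 and above background on only 1 Neb SH3-deleted array, against 3 wild type arrays. Muscle fibres also express genes of this list, so the count does not read red cells alone. The summed raw signal of the 5 genes was 616 to 672 in Neb SH3-deleted and 663 to 755 in wild type muscle. Background was not removed from these sums, and the median signal of an array was 83.3 to 88.9, so much of each sum is background.

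Platelet and leukocyte genes were also near background, and whether the tested ones came from blood or from cells resident in the muscle was not tested. Of 25 genes 3 were tested, 2 higher and 1 lower, and 0 passed. Lyz2, lysozyme of macrophages and granulocytes, was at -0.26, Cd74, the invariant chain of antigen presentation, at 0.10, and H2-Ab1, a class II chain, at 0.10. The summed raw signal, background included, was 269 to 331 in Neb SH3-deleted and 268 to 304 in wild type muscle. Of 18 endothelial and pericyte genes 5 were tested, all 5 with a lower mean and 0 past the threshold (median -0.15), with Egfl7 at -0.28, Esam at -0.01 and the pericyte gene Rgs5 at -0.40. In whole muscle, fewer cells of a type and less RNA per cell cannot be told apart, and the part of blood content in the globin levels was not tested.

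Haem and iron genes had 9 of 32 members tested, 1 higher and 8 lower, and 0 passed (median -0.18, beside 44.3% of all genes higher). Iscu, the scaffold for iron-sulfur clusters, was at -0.48 (95% interval -0.95 to -0.01), Fth1, the ferritin heavy chain, at -0.18 (-0.57 to 0.21) and Tfrc, the transferrin receptor, at 0.17 (-0.52 to 0.87). Tfrc turned to -0.10 with 1 array left out. Alas1, the housekeeping counterpart of Alas2 and named for that role, was measured on all arrays, with signals of 102, 99.3 and 101 in Neb SH3-deleted and 107, 114 and 97.8 in wild type muscle, and a log2 difference of -0.14. The other globins Ngb and Cygb had 0 tested genes.

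Genes of oxidative fibres, the fibres in which myoglobin is most abundant, had 16 of 25 members tested, of which 5 had a higher and 11 a lower mean, and 0 passed (median -0.13). Ckmt2, mitochondrial creatine kinase, was at -0.10 (95% interval -0.54 to 0.35), Mef2c, a transcription factor that acts on Mb, at -0.17 (-1.94 to 1.59) and Lpl, lipoprotein lipase, at -0.68 (-1.02 to -0.34, adjusted p 0.984 by limma). Mef2c was anywhere from -1.01 to 0.76 once 1 array was left out. Of the 16 genes 7 were highest in wild type replicate 2, the array highest for both Mb probes, as were 18.8% of all probes tested. Their summed raw signal, background included, was 2959, 4269 and 3249 in Neb SH3-deleted muscle, against 4894, 4113 and 3869 in wild type muscle. Values are in the order of replicates 1 to 3, so the highest sum was that of wild type replicate 1, not 2. The raw signal of Mb ILMN_2954987 was 632 in wild type replicate 2, its highest, against 356 in replicate 1. On the raw scale the highest sum and the highest Mb signal thus fell on different arrays. Ckmt2 alone gave 1718 of the sum of 4894. After normalization that Mb probe was lowest in wild type replicate 1, at 7.83, but the sums were not normalized and cannot be set against this level. Hypoxia-response genes had 4 of 24 members tested, 1 higher and 3 lower, and 0 passed, with Ldha, lactate dehydrogenase A, at -0.05, Pgk1 at -0.08 and Vegfa at -0.19. Of the list genes named, Tmod1, Cd74, H2-Ab1, Esam, Alas1, Ckmt2, Ldha and Pgk1 also changed sign when a single array was left out.

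The skeletal muscle markers had 9 higher and 5 lower among the 14 genes tested, and 0 passed (median log2 difference 0.19). Pvalb was at 0.21 (95% interval -0.22 to 0.64), Acta1, skeletal α-actin, at 0.38 (-0.04 to 0.80) and Tnnc2, fast troponin C, at -0.27 (-0.79 to 0.24). The Pvalb value is limited by the method. Its probe was the brightest on every array but wild type replicate 1, and quantile normalization gives the brightest probe the same level on each array. Its difference therefore rests on wild type replicate 1 and was 0 without it, although the raw signals varied. With median scaling 3 of the 14 were higher and 11 lower (median -0.10), whereas the 7 β-globin probes and Hba-a1 stayed above 0. The part of this shift in the globin differences was not tested.

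The genes whose levels followed Mb ILMN_2954987 most closely over the 6 arrays, out of 2549 others, were Eif4a3 (Pearson's r 0.978), Dvl1 (0.974), Kctd5 (0.970), Morn3 (0.966) and Med20 (0.962). For Hbb-bt ILMN_1236718 they were Lims2 (0.971), Zer1 (0.960), Cd8b1 (0.942), Jagn1 (0.942) and Apba3 (0.941). All 10 were dim, with signals of 86.1 to 114 in the first set and 86.1 to 136 in the second. They are the highest of many correlations over few arrays and share the arrays' normalization, so they are given as a description with no test. Neither set held a gene of the oxidative fibre, haem or red cell lists. Those lists had only 16, 9 and 5 tested genes, so sets of 5 out of 2549 would seldom hold one.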

How the data were processed

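Tibialis anterior RNA of 3 Neb SH3-deleted and 3 wild type mice was measured, 1 array each. Per the labels' protocols it was extracted with Trizol and labelled with biotin. The authors deposited a table of signal intensity with detection p-values, not normalized per the file headers, and a second table that behaves as quantile-normalized log2 values (column medians 6.10, Spearman 1 with the signals). Its exact scale and settings are unknown; the submitters' processing notes name lumi. Of the sample columns 0 were left unused.

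Signals were background-corrected (normexp from detection p-values, offset 16), taken to log2 and quantile normalized. The 3422 probes above background (detection p below 0.05) on 3 or more of 6 arrays were fitted with limma 3.58.1 in R 4.3.3, two-sided, with Benjamini-Hochberg adjustment over them, and tested on simulated data. Array number limits the precision, and p-values measure the spread between these animals. The platform annotation gave 34885 probes 1 symbol, 18 several and 10378 none. Lists (176 names, 164 matched, with 1 further name not reported here) were summarised with the brightest probe per gene, and named genes were all member probes, the 3 brightest of each list and the 5 closest in pattern. Members and lists were chosen with earlier results of these data known. Alternatives concerned background, normalization, filters, probe choice, weights, moderation, a replicate block and arrays left out.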

Additional observations from a re-analysis of the deposited data

How the results depend on the processing

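The count of probes past an adjusted p of 0.05 (limma) was 0 in 19 of 19 alternatives, with 36 to 1895 probes at an unadjusted p under 0.05 (147 as reported), the smallest with the strict detection filter (1141 probes tested) and the largest with no filter (45281). Without background correction the α- and β-globin differences were 0.03 to 0.50, and with the deposited values 0.03 to 0.49. Deviations of same-numbered arrays from their group means correlated at -0.22, -0.18 and 0.09, so the numbers are not taken to pair the animals. The replicate block, balanced over the genotypes, cannot change a difference, and it left 0 probes past the threshold. Median scaling turned Mb ILMN_2954987 to -0.26, and moved the median of all probes from -0.03 to -0.09. With each array left out, Mb ILMN_2954987 ran from -0.20 to 0.35, Mb ILMN_1234662 from -0.33 to 0.0366, Hbb-bs ILMN_1223244 from -0.0154 to 0.20 and Hbb-bs ILMN_1255462 from -0.0513 to 0.44, all crossing 0. Hba-a1 (0.21 to 0.85), Hbb-bs ILMN_1244316 (0.38 to 0.80), Hbb-bs ILMN_2545963 (0.47 to 1.59), Hbb-bs ILMN_1229203 (0.28 to 1.10), Hbb-bt ILMN_1236718 (0.24 to 0.89) and Hbb-bt ILMN_1239117 (0.18 to 0.52) kept their direction in these 6 and in every other alternative in which they were tested. The filters, the probe choice, the replicate block and the moderation cannot change a difference. Only background, normalization, array weights and arrays left out bear on direction. The 3 correlations with Mb kept their sign; over 6 arrays they were 0.33 to 0.68 and passed no threshold, and without the 2 farthest arrays they were 0.33 to 0.81, with no test. Among the gene lists, scaled the same ways after seeing the data, the skeletal muscle markers changed sign, with median scaling.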
